A study of Mus musculus with 12 samples.

Results

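The transcripts described here are 940 of the 42452 mouse kidney transcripts that were deposited as noncoding. The best database match of each is an entry named only as a mouse lncRNA or lincRNA. They were chosen by the text of that match: 946 transcripts fitted it, 6 of which were left out by name together with 1 further transcript that does not carry such a match. Of the 940, 741 matched entries classed as lncRNA and 199 entries classed as lincRNA. The match text gives an entry number and the class, and no gene name, so each transcript is called below by the running number of the tables, and no function is assigned to it.

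Long noncoding RNAs are RNA polymerase products of messenger-like length without a recognised open reading frame. Some are spliced and polyadenylated, and lincRNA is the name used for those that lie between protein-coding genes. In general they are known for tissue-restricted, low expression, and individual ones act in the nucleus on chromatin or as scaffolds for proteins, or in the cytoplasm on other RNAs.

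The study profiled kidney RNA of C57BL/6J mice, wild type (WT) or knockout (KO) for Smad3, a transcription factor through which TGF-β receptors act in the nucleus. Each genotype was sampled as normal kidney, at day 5 after the left ureter was tied off (obstruction of 1 ureter, UUO, a model of tubulointerstitial inflammation and fibrosis), and at day 10 of a glomerular inflammation that sheep globulin against the glomerular basement membrane of mice induces (anti-GBM glomerulonephritis, 60 μg per g body weight, after immunisation with sheep IgG in adjuvant). That made 6 groups of 2 libraries; by its title the series looks for genes linked to this pathway in inflamed and fibrotic kidney. The labels give both genotypes the same strain, mention sham-operated as well as normal controls without saying which the normal libraries are, and give 8 mice of both sexes per UUO group without the sex of each library. Sample codes differ between libraries of a group, but how they were drawn is not stated, and p-values below measure the spread between these libraries. Whole kidney was used, so fewer cells of a type and less RNA per cell cannot be told apart. The tables hold only transcripts listed as noncoding. Smad3 and the marker genes of kidney cell types were not analysed here, so neither the knockout nor the tissue was checked.

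Reads on listed transcripts ran from 4595261 to 7342937 per library, and between 636 and 849 of the 940 transcripts had at least 1 read. The libraries that stood apart were WT UUO 1, KO UUO 1 and KO anti-GBM 1: the length of transcript their reads covered was 0.282 to 0.389 of that given by randomly placed reads, against 0.571 to 0.749 in the other 9 libraries. In the same 3 libraries the whole set held 6.21% to 8.69% of all reads, against 22.9% to 40.5% elsewhere. That gap came from 1 transcript. ncRNA_aligned_3554, of 16248 bases, took between 1.95% (WT UUO 1) and 35.7% (WT normal 2) of a library, while the other 939 together held between 3.96% (KO anti-GBM 1) and 5.98% (KO anti-GBM 2). Because that transcript was so abundant, levels are given below as TMM-scaled read counts relative to library size, in the usual CPM unit, which compares libraries through the transcripts between them that change least, or, where transcripts are compared with each other, as the authors' RPKM, reads per kilobase of transcript relative to the reads of the library.

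**Figure D1:**
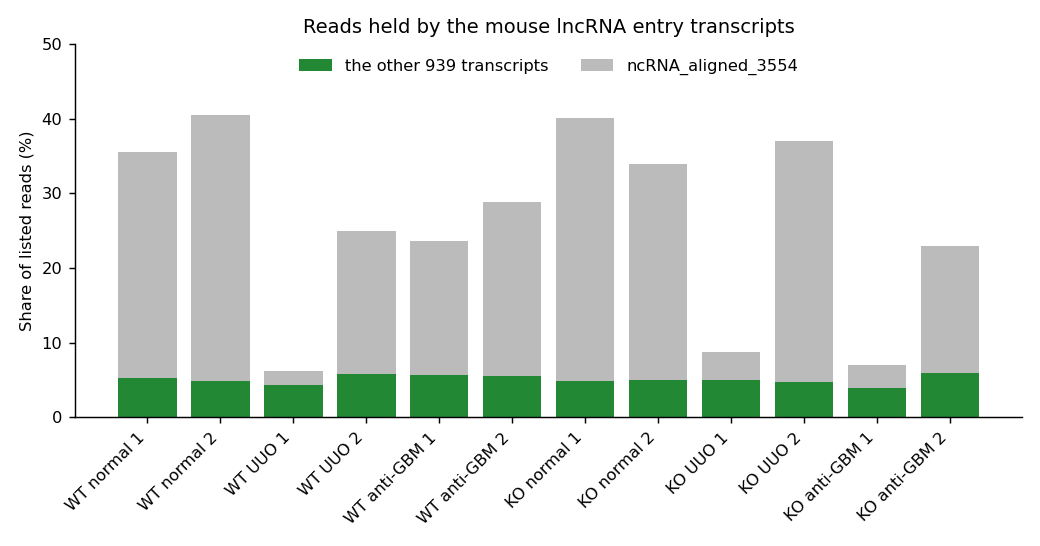
Share of listed reads (%, y axis) held by ncRNA_aligned_3554 (grey) and by the other 939 lncRNA-entry transcripts (green) in each of the 12 libraries; bars are stacked and start at 0. The green part stays between 3.96% and 5.98%, and the grey part drops to between 1.95% and 3.68% in WT UUO 1, KO UUO 1 and KO anti-GBM 1.

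The median length of the lncRNA-entry transcripts was 1542 bases (range 150 to 19022), against 2178 for the other transcripts with a database match and 581 for all transcripts. Their median level, as mean RPKM over the 12 libraries, was 2.51, with a middle range from 0.719 to 7.37. The other 9912 transcripts with a database match had a median of 2.30, and the 31600 predicted transcripts without one had 1.64. A mean of 10 RPKM or more was reached by 207 of the 940 (22.0%), nearly the share among the other matched transcripts (22.2%) and above that among predicted ones (2.58%). Read detection was similarly broad: 463 (49.3%) were listed in all 12 libraries, compared with 51.5% of the other matched and 13.8% of the predicted transcripts, and 18 were seen in 1 library only. Within the set, those matched to lncRNA entries had the higher median RPKM, 2.76 against 1.56 for lincRNA entries.

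Many of the 940 are not independent. They matched 630 different entries, and 177 entries were matched by more than 1 transcript, 487 transcripts in all. The most crowded, entry 413804, had 15 transcripts between 152 and 10574 bases long, with mean RPKM from 1.12 to 3.96. The tables give no coordinates and no strand, so whether transcripts on 1 entry overlap, are fragments of 1 RNA or are related copies cannot be told apart. Sharing an entry did not mean a shared level: on entry 413921, 6 transcripts ran from 0.987 RPKM to 270.2 RPKM, the latter ncRNA_aligned_8296. On entry 419655, 3 transcripts were abundant, ncRNA_aligned_2470 at 671 ± 191 RPKM (SD, n = 12), ncRNA_aligned_10616 at 479 ± 144 and ncRNA_aligned_11297 at 207 ± 38.8, while the remaining ncRNA_aligned_8297 was at 1.52 ± 0.858. These entries were chosen for description after their values were seen.

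A family model of structured RNAs (RFAM) was listed for 128 of the 940. The commonest was the model of the signal recognition particle RNA, which guides ribosomes making secreted proteins to the endoplasmic reticulum; 35 transcripts carried it, 27 of them deep enough to be tested. Their mean RPKM ran from 0.0169 to 40.6, with a median of 2.47. Vertebrate telomerase RNA, the template for telomere repeats, was the model of 4 transcripts, the highest being ncRNA_aligned_937 at 31.2 RPKM. The model of 7SK, an RNA that holds an elongation factor of RNA polymerase II inactive, was listed for 2, the higher being ncRNA_aligned_2906 at 13.1 RPKM. The transcripts were 230 to 10234 bases long for the signal recognition particle model, 1483 to 7613 for telomerase and 891 to 4111 for 7SK. Their levels are those of whole transcripts and not of the RNA of the model. Other models in the list, such as GlmZ_SraJ and CsrC, are those of bacterial RNAs. How strong any of these matches is, those named first included, is not given.

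Reads were not spread evenly along every transcript. In 117 transcripts every library had enough reads to cover the length at least 5 times, and 74 of those were covered over 95% or more of their length in some library. In 8 of the 117, less than 50% was covered in every library. The extreme was ncRNA_aligned_7420, of 7053 bases and with the model of the small nucleolar RNA snoU85, which had 578 to 4297 reads and coverage of only 4.95% to 11.6%. For ncRNA_aligned_11297 of entry 419655, 2627 to 5546 reads lay on 14.6% to 25.7% of 2826 bases. For these transcripts a level per length understates the level of the stretch that is covered.

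The highest mean level in the set was that of ncRNA_aligned_3554, at 18640 and 21991 RPKM in WT normal, 1199 and 11786 in WT UUO, and 11048 and 14378 in WT anti-GBM. In KO mice it stood at 21642 and 17851 RPKM in normal kidney, 2265 and 19823 in UUO, and 1865 and 10434 in anti-GBM. Its 3 lowest values were those of the 3 libraries of low coverage, and the KO UUO pair alone spanned almost the whole range, so no order of the groups can be read from it. It was called in no comparison. Its reads covered 83.3% to 92.5% of its length. Whether it is a single lncRNA, and where in the genome its reads come from, was not tested.

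Next in level came ncRNA_aligned_2306, with a median of 2466 RPKM over the 12 libraries (758 to 3658), and ncRNA_aligned_980, a short transcript of 437 bases, with 2413 (515 to 3311). Both were lowest in the 3 libraries of low coverage. ncRNA_aligned_2245 stood at 1759 RPKM (715 to 3482), lowest in the WT normal pair. ncRNA_aligned_7762 had 1661 (782 to 2601) and ncRNA_aligned_6576 had 1248 (306 to 2357). The last was the most changeable of this group outside ncRNA_aligned_3554 and is taken up under UUO. The other 4 of the top 10 varied less than ncRNA_aligned_6576, with medians of 1166 RPKM for ncRNA_aligned_7871, 940 for ncRNA_aligned_6541, 777 for ncRNA_aligned_7872 and 742 for ncRNA_aligned_5187. In ncRNA_aligned_5187 the WT anti-GBM pair was higher (1961 and 1336 RPKM) than the normal pairs of either genotype (583 and 482.1 in WT, 585 and 629 in KO). RPKM is not TMM-scaled. In TMM-scaled CPM its range was narrower, from 1170 (KO anti-GBM 2) to 3180 (WT anti-GBM 1), and ncRNA_aligned_5187 was called in no comparison. The ranges of most neighbours in this order overlap, and their order is a description of these libraries.

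**Figure D2:**
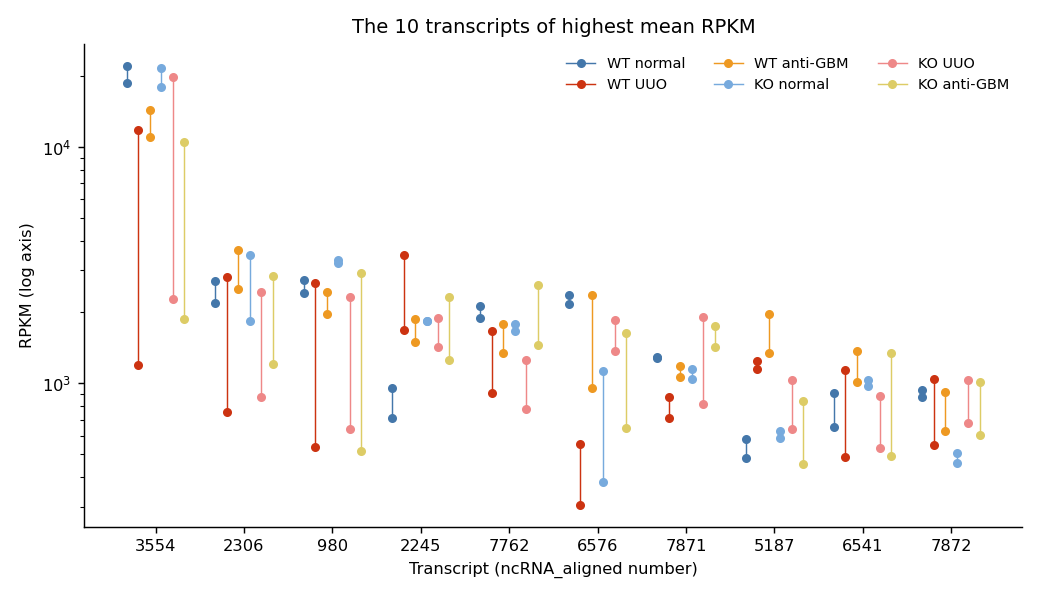
RPKM (log axis) of the 10 transcripts of highest mean RPKM in the 12 libraries; each point is a library, the line joins the 2 libraries of a group, and colours give the groups. ncRNA_aligned_3554 lies above the rest, up to 21991, and falls to 1199 in WT UUO 1; ncRNA_aligned_6576 is lowest in the WT UUO pair and in KO normal 2.

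On the TMM scale some transcripts barely moved. Among transcripts that averaged at least 20 CPM with reads in every library, the highest CPM was typically several times the lowest (median ratio 5.24). ncRNA_aligned_1679, of 12488 bases, was the steadiest, with 682 and 758 CPM in WT normal, 962 and 705 in WT UUO, and 868 and 769 in WT anti-GBM. In KO mice it had 839 and 668 CPM in normal kidney, 740 and 828 in UUO and 803 and 863 in anti-GBM. No group stood apart from all the others, and the highest library was 1.44 times the lowest. ncRNA_aligned_3366 (20.7 to 35.3 CPM, 1.70 times) and ncRNA_aligned_471 (16.9 to 29.5 CPM, 1.75 times) came next. These were picked for their steadiness on that scale, and they were less steady in RPKM. There ncRNA_aligned_1679 ran from 39.5 to 113, ncRNA_aligned_3366 from 5.90 to 14.1 and ncRNA_aligned_471 from 5.78 to 17.4.

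Obstruction in WT mice gave nearly all of the calls. At an adjusted p under 0.05 (edgeR's quasi-likelihood test, adjusted over the 24816 transcripts deep enough to test, 688 of them lncRNA-entry transcripts), 38 of the 688 were called between obstructed and normal WT kidney, of which 6 rose and 32 fell. The share called among all transcripts tested was 2.42% (0.681% higher, 1.74% lower). At an unadjusted p under 0.05 there were 167 of the 688, where the share of all transcripts tested was 15.8%. DESeq2 called 66 of the 688, where its share of all transcripts tested was 5.55%. The lower calls made up 4.65% of the lncRNA-entry transcripts and 3.72% of the other matched transcripts. Calls went with level: among lncRNA-entry transcripts of 10 CPM or more 9.93% were called lower, against 7.69% of the other matched transcripts and 7.97% of all transcripts at that level. Of the 38 called, 36 matched lncRNA entries (of 554 tested) and 2, ncRNA_aligned_7809 and ncRNA_aligned_548, lincRNA entries (of 134 tested).

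The directions hang on the scaling. With TMM the median log2 difference in WT UUO was -0.65 over the 688 transcripts and 0.49 over all transcripts tested. With library size alone those medians were 0.40 and 1.55, and the calls turned to 25 higher and 9 lower (886 and 137 among all transcripts tested). Library size without the 2 dominant transcripts of the tables gave 11 higher and 15 lower calls (443 and 178 among all). The distance between both medians was -1.14 with TMM, a value that another scaling hardly changes because it shifts all transcripts alike, and -0.80 without WT UUO 2. Among transcripts of 10 CPM or more the TMM median was -0.85 for the lncRNA-entry transcripts, -0.57 for the other matched ones and -0.61 for all. Under 10 CPM it was -0.41 for 396 lncRNA-entry transcripts and 0.23 for the other matched ones. All 32 lower calls kept their sign, and 9 their call, under each of the 4 scalings tried; all 6 higher calls kept both. Leaving out the 3 libraries of low coverage leaves 1 WT UUO library, which is assumed to vary like the other groups. The median was then -0.65 against 0.434 over all transcripts tested, and all 6 higher and 32 lower calls kept their sign. The count called among the 688 was higher in that fit than with all 12 libraries, as it was among all transcripts tested. The count fell without either WT normal library or without WT UUO 1, and rose without either KO UUO library. It did so among the 688 and among all transcripts tested. Just 7 calls, 6 lower and 1 higher, held in all 12 fits that each left out 1 library.

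**Figure D3:**
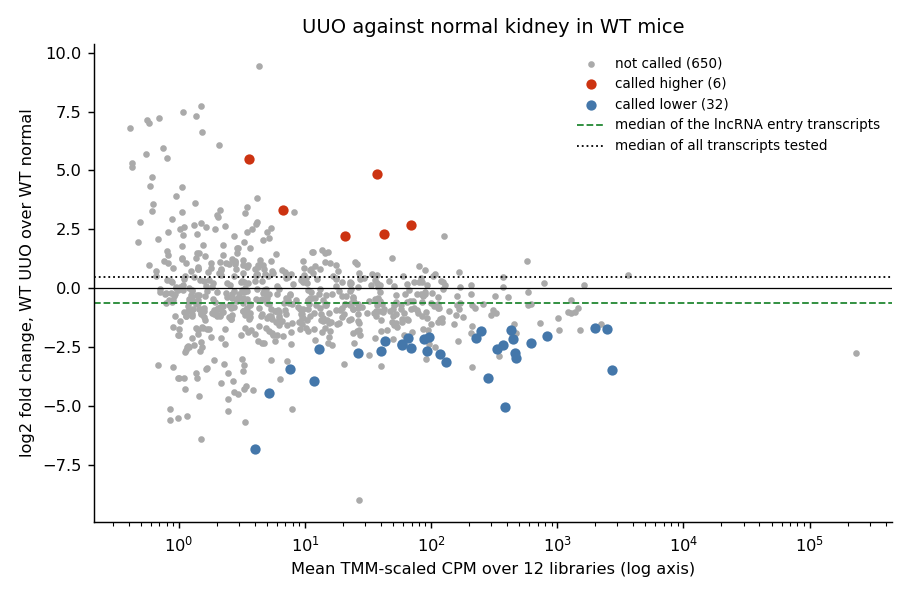
Log2 fold change in WT UUO over WT normal (y axis, edgeR with TMM scaling) against mean TMM-scaled CPM over 12 libraries (log x axis) for the 688 lncRNA-entry transcripts tested; red and blue points are called higher (6) and lower (32). The dashed line is their median, -0.65, and the dotted line the median of all transcripts tested, 0.49; with library size alone both lines lie above 0.

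Of the transcripts lower in WT UUO, ncRNA_aligned_3629 fell the furthest among the 6 that held in every such fit. It had 808 and 871 CPM in WT normal and 21.9 and 29.2 in WT UUO, with 70.0 and 222 in WT anti-GBM. In KO mice it had 809 and 954 CPM in normal kidney, 112 and 210 in UUO, and 127 and 408.6 in anti-GBM. The normal pairs of both genotypes were the highest and did not overlap any diseased pair, and the WT UUO pair was lowest. The log2 difference in WT UUO was -5.04 ± 0.63 (SE, adjusted p = 0.0002 in edgeR), and it was -3.96 with library size alone, also called.

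ncRNA_aligned_6543 had 623 and 532 CPM in WT normal and 24.9 and 57.8 in WT UUO, against 105 and 162 in WT anti-GBM. Its KO values were 301 and 559 CPM in normal, 67.6 and 165 in UUO and 222 and 541.2 in anti-GBM kidney. As with ncRNA_aligned_3629 the normal and UUO pairs were apart in both genotypes; the WT UUO difference was -3.80 ± 0.58 (adjusted p = 0.000936). ncRNA_aligned_2078 went from 164 and 158 CPM in WT normal to 21.0 and 15.4 in WT UUO, a log2 difference of -3.14 ± 0.49 (adjusted p = 0.00108), and stayed at 113 and 131 in WT anti-GBM. Its KO pairs were 243 and 204 CPM in normal, 85.4 and 44.3 in UUO and 139 and 263 in anti-GBM kidney, again apart between normal and UUO.

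In the other 3 of these 6 the KO pairs looked different. ncRNA_aligned_6576 fell from 5493 and 6151 CPM in WT normal to 403 and 654 in WT UUO, with 1586 and 3392 in WT anti-GBM. In KO mice it had 2671 and 995 CPM in normal kidney, 2477 and 2738 in UUO and 1677 and 4278 in anti-GBM. The KO UUO pair overlapped the KO normal pair, lay inside the KO anti-GBM pair and was above the WT UUO pair. The WT UUO difference was -3.46 ± 0.54 (adjusted p = 0.00172 in edgeR); it kept its sign but not its call with library size alone (adjusted p = 0.0736) and without the 3 libraries of low coverage (adjusted p = 0.0576).

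ncRNA_aligned_4955 had 832 and 952 CPM in WT normal, 112 and 114 in WT UUO, with 260 and 574 for the WT anti-GBM pair, against 557 and 311 in KO normal, 322 and 470 in KO UUO and 464 and 726 in KO anti-GBM. The 3 KO groups overlap. Its WT UUO difference was -2.98 ± 0.47 (adjusted p = 0.00108). ncRNA_aligned_627 had 221 and 212 CPM in WT normal and 34.4 and 27.0 in WT UUO, a difference of -2.82 ± 0.50 (adjusted p = 0.00256), with 71.4 and 114 in WT anti-GBM. Its KO normal (106.4 and 124 CPM) and KO UUO (85.7 and 110) pairs overlap, with KO anti-GBM at 82.5 and 212.

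Another 4 lower calls were of transcripts with fewer reads in WT normal. ncRNA_aligned_5247, of 308 bases, had 12.8 and 14.1 CPM in WT normal and 0 and 0.168 in WT UUO, and lost its call in 8 of the 12 fits. ncRNA_aligned_547 had 5.99 and 3.25 CPM in WT normal and 0 and 0.336 in WT UUO. ncRNA_aligned_2033 had 17.5 and 24.7 against 0.596 and 2.01, and ncRNA_aligned_10462 had 21.6 and 19.3 against 2.09 and 1.68. All of these pairs are apart, and all 4 calls were lost without at least 1 library, WT UUO 1 in each of the 4. The remaining 22 lower calls had log2 differences from -2.77 (ncRNA_aligned_7809) to -1.70 (ncRNA_aligned_7762). Both abundant members of that range, ncRNA_aligned_7762 and ncRNA_aligned_7871, fell from 3148 and 2877 CPM to 699 and 1152, and from 3228 and 3379 to 1148 and 841.

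Of the 6 transcripts higher in WT UUO, ncRNA_aligned_6280 alone was called in each fit without 1 library. It had 5.34 and 3.25 CPM in WT normal, 143 and 108 in WT UUO, with 20.3 and 19.3 for the WT anti-GBM pair. In KO mice it had 11.2 and 13.6 CPM in normal kidney, 67.4 and 30.1 in UUO and 12.4 and 11.0 in anti-GBM. Both UUO pairs stood above every other pair, the WT one higher; the WT UUO difference was 4.86 ± 0.62 (adjusted p = 0.000117). ncRNA_aligned_1133 had 0.428 and 0.2168 CPM in WT normal, 20.4 and 10.3 in WT UUO, and no read in either KO anti-GBM library; its call (5.49 ± 1.23, adjusted p = 0.0159) was lost without either WT normal library and without WT UUO 1.

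The other 4 higher calls were more moderate. ncRNA_aligned_11033 had 2.78 and 1.95 CPM in WT normal and 18.5 and 28.7 in WT UUO. ncRNA_aligned_5892 had 21.8 and 12.8 against 134 and 88.7, ncRNA_aligned_4517 had 21.0 and 16.7 against 119 and 67.8, and ncRNA_aligned_7878 had 10.7 and 10.4 against 65.4 and 33.8. Each pair in UUO lay above the normal pair, with log2 differences from 2.23 to 3.31, and each of these calls was lost when either WT normal library or WT UUO 1 was left out.

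**Figure D4:**
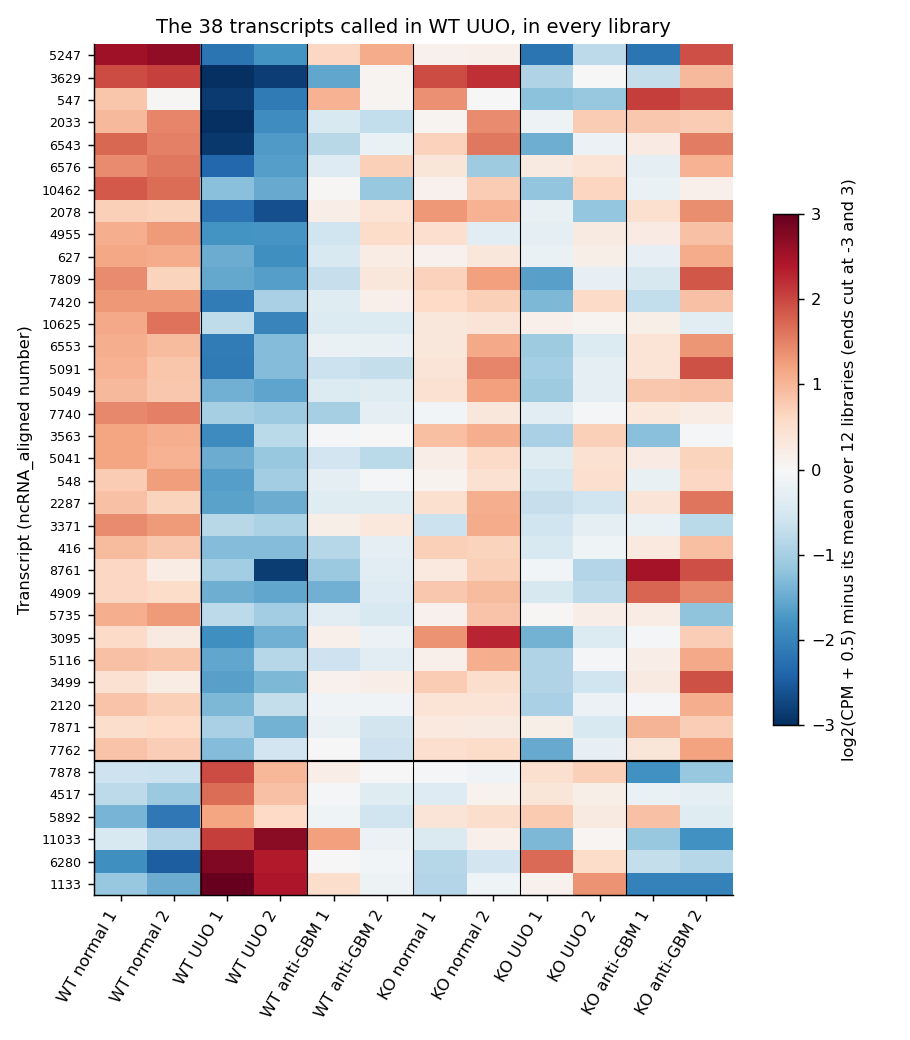
The 38 transcripts called in WT UUO against WT normal (rows, by log2 difference; 32 lower above the line, 6 higher below) in the 12 libraries (columns); colour is log2(CPM + 0.5) minus the transcript's mean over the libraries, cut at -3 and 3. WT normal and WT UUO, the groups that chose the rows, contrast most; KO UUO columns are paler, and several rows are high in KO anti-GBM.

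Obstruction in KO mice gave no call among the 688 transcripts (edgeR; share of all transcripts tested called, 0.0121%). At an unadjusted p under 0.05 there were 61 of the 688, 18 higher and 43 lower. Among all transcripts tested that share was 5.98%, with 700 higher and 783 lower. DESeq2 called 4 of the 688, beside 0.496% of all transcripts tested. Without KO UUO 2 edgeR called more, among the 688 and among all. The median log2 difference was -0.36, against 0.00 over all transcripts tested. With library size alone it was 0.24 against 0.59, and the unadjusted split turned to 71 higher and 16 lower (2333 and 304 among all). Leaving out 1 library at a time moved the median of -0.36 between -0.835 (without KO UUO 2) and -0.177 (without KO normal 2). The 3 smallest p-values were those of ncRNA_aligned_3095, ncRNA_aligned_3629 and ncRNA_aligned_2078. ncRNA_aligned_3095 had 178 and 342 CPM in KO normal and 25.7 and 52.4 in KO UUO, which do not overlap, a log2 difference of -2.74 ± 0.52 with adjusted p = 0.0918; it was called by DESeq2 (adjusted p = 0.000494). For ncRNA_aligned_3629 the difference was -2.45 ± 0.56 (adjusted p = 0.225) and for ncRNA_aligned_2078 it was -1.78 ± 0.47 (adjusted p = 0.287).

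The 32 transcripts called lower in WT UUO were also mostly negative in KO UUO against KO normal: 31 of 32 had a negative log2 difference, with a median of -0.96 (lowest -2.74, highest 0.51). The group levels there come from KO libraries, while scaling and spread were fitted over all 12. Of all 688 transcripts 64.1% were negative there. Those 32 had been chosen at the same time for being abundant enough to be called. Among all 292 lncRNA-entry transcripts of 10 CPM or more the median in KO UUO was -0.50, and 25.3% were positive. Both UUO groups hold a library of low coverage and the normal groups hold none. The part of those libraries in this agreement was not tested. Of the 6 transcripts called higher in WT UUO, 5 were positive in KO UUO, with a median of 0.55. Of the 688 transcripts 35.9% were positive there, and of all transcripts tested 50.1%. Between KO anti-GBM and KO normal the 32 were split into 14 negative and 18 positive, with a median of 0.10, and the 6 were all negative, with a median of -0.77. Positive values made up 43.3% of the 688 there (median -0.13) and 37.8% of all transcripts tested (median -0.37). Among the 292 of 10 CPM or more the median was -0.02.

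For the WT and KO responses to obstruction the difference between them was tested as an interaction. At an unadjusted p under 0.05 there were 46 of the 688, beside 5.63% of all transcripts tested. DESeq2 called 3 of the 688, beside 0.52% of all. By edgeR 1 of the 688 transcripts was called (share of all transcripts tested called, 0.0604%). This was ncRNA_aligned_6576, whose 4 pairs are given above: its log2 response was -3.46 in WT and higher by 3.97 ± 0.72 in KO (adjusted p = 0.0461). KO normal 1 and KO normal 2 differed, at 2671 and 995 CPM, and both were under the WT normal pair. The call was lost without any 1 of WT normal 1, WT normal 2, WT UUO 1, WT UUO 2, KO normal 2, KO UUO 1 or KO UUO 2, without the 3 libraries of low coverage (3.72, adjusted p = 0.194) and with library size alone (3.50, adjusted p = 0.356), while DESeq2 called it (adjusted p = 0.00344). The next smallest p-values were those of ncRNA_aligned_4955 (2.85 ± 0.63, adjusted p = 0.102) and ncRNA_aligned_627 (2.58 ± 0.68, adjusted p = 0.212), both of which had fallen in WT UUO. Without the 3 libraries of low coverage the median interaction was 0.42, against -0.259 over all transcripts tested (0.33 and -0.25 with all 12 libraries). More transcripts were called in that fit, among the 688 and among all.

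Between KO UUO and WT UUO themselves none of the 688 was called by edgeR (share of all transcripts tested called, 0.00806%). At an unadjusted p under 0.05 there were 49 of the 688, 34 higher and 15 lower in KO. Among all transcripts tested that share was 6.08%, with 702 higher and 808 lower. DESeq2 called 4 of the 688, beside 0.447% of all transcripts tested. The median difference was 0.32 against -0.16 over all transcripts. With library size alone it was -0.12 against -0.57, and 11 were higher and 34 lower at an unadjusted p under 0.05 (355 and 1607 among all). The direction also turned without KO UUO 2, where the median was -0.245 against -0.627 over all transcripts. At an unadjusted p under 0.05 lower ones then outnumbered higher ones among the 688, as among all transcripts. The smallest p-values belonged to ncRNA_aligned_3629 (2.65 ± 0.57, adjusted p = 0.13), ncRNA_aligned_6576 (2.30 ± 0.52, adjusted p = 0.172) and ncRNA_aligned_4955 (1.81 ± 0.45, adjusted p = 0.246). For each of them both KO UUO libraries lay above both WT UUO libraries, with the values given above. The 32 transcripts called lower in WT UUO were all positive here, a direction in part fixed by choosing them for low values in the same WT UUO libraries. Each group holds 1 of the libraries of low coverage, whose part in these differences was not tested. Without those libraries the median was 0.411 against -0.182 over all transcripts.

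Anti-GBM glomerulonephritis in WT mice gave no call among the 688 by edgeR (share of all transcripts tested called, 0.0201%). At an unadjusted p under 0.05 there were 65 of the 688, of which 12 were higher and 53 lower. Among all transcripts tested that share was 6.56%, with 863 higher and 764 lower. DESeq2 called 4 of the 688, beside 0.669% of all transcripts tested. The median was -0.35 against 0.30 over all transcripts. With library size alone it was 0.38 against 1.03, and the unadjusted split turned to 53 higher and 11 lower (2362 and 194 among all). None of the libraries of low coverage is in this comparison, yet leaving them out of the fit changes the spread shared by all groups. Many more transcripts were then called, among the 688 and among all tested, with medians of -0.328 and 0.32. The lack of calls thus depends on which libraries of other groups enter the fit.

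The 3 smallest p-values in WT anti-GBM were all of transcripts that were also called in WT UUO, and the comparisons share their normal libraries. ncRNA_aligned_7740 had 158 and 165 CPM in WT normal, 28.8 and 47.9 for the WT anti-GBM pair and 28.9 and 26.9 in WT UUO; the diseased pairs overlap each other and lie below normal (-2.07 ± 0.47 in anti-GBM, adjusted p = 0.13). ncRNA_aligned_5041 had 729 and 664 CPM in WT normal, 216 and 185 for the WT anti-GBM pair and 115 and 147 in WT UUO (-1.80 ± 0.41 in anti-GBM, adjusted p = 0.145). The third was ncRNA_aligned_3629 (-2.52 ± 0.56, adjusted p = 0.145), whose WT anti-GBM pair lay between the normal and UUO pairs.

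In KO mice anti-GBM glomerulonephritis gave 2 calls, both higher (share of all transcripts tested called, 0.0524%). ncRNA_aligned_6096 had 6.29 and 8.40 CPM in KO normal and 126 and 72.1 in KO anti-GBM. In the other groups it had 12.8 and 13.2 CPM in WT normal, 19.5 and 16.0 in WT UUO, 27.8 and 12.6 for the WT anti-GBM pair and 17.6 and 21.9 in KO UUO. The KO anti-GBM pair stood above the libraries of all other groups, and the difference from KO normal was 3.75 ± 0.61 (adjusted p = 0.00828), lost without KO normal 1, KO normal 2 or KO anti-GBM 1.

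The second call, ncRNA_aligned_4115, matched a lincRNA entry and carried the signal recognition particle model. It had no read in either KO normal library and 12.6 and 19.7 CPM in KO anti-GBM, at least 50.3-fold higher against a floor of 3 reads over the group (adjusted p = 0.0385). It was also high in WT anti-GBM, at 15.5 and 6.32 CPM, against 2.57 and 0.867 in WT normal, 1.49 and 0.756 in WT UUO and 0 and 0.669 in KO UUO, so both anti-GBM pairs stood above all other groups. Its reads never covered more than 15.4% of its 3033 bases, and its call was lost in 5 of the 12 fits without 1 library, those without KO normal 1, KO normal 2, KO anti-GBM 1, KO anti-GBM 2 or WT anti-GBM 1. DESeq2 called 5 of the 688 in this comparison, beside 0.427% of all transcripts tested. At an unadjusted p under 0.05 there were 64 of the 688, beside 8.75% of all. The fit without the 3 libraries of low coverage called more, among the 688 and among all.

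ncRNA_aligned_1920 had the third smallest p-value in KO anti-GBM. It had 191 and 210 CPM there, against 23.3 and 30.9 in KO normal and 56.7 and 17.4 in KO UUO. In WT mice it had 63.1 and 43.6 CPM in normal kidney, 41.1 and 10.2 in UUO and 18.5 and 23.0 in anti-GBM. The KO anti-GBM pair stood apart from the rest. Its difference was 2.89 ± 0.63 from KO normal (edgeR adjusted p = 0.149) and 3.27 ± 0.64 from WT anti-GBM (edgeR adjusted p = 0.0519). Leaving out the 3 libraries of low coverage leaves a single KO anti-GBM library, with no spread of its own. Reads covered 18.3% to 31.0% of the 2282 bases of this transcript. The difference between the KO and WT responses was 4.25 ± 0.86 (adjusted p = 0.0912).

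**Figure D5:**
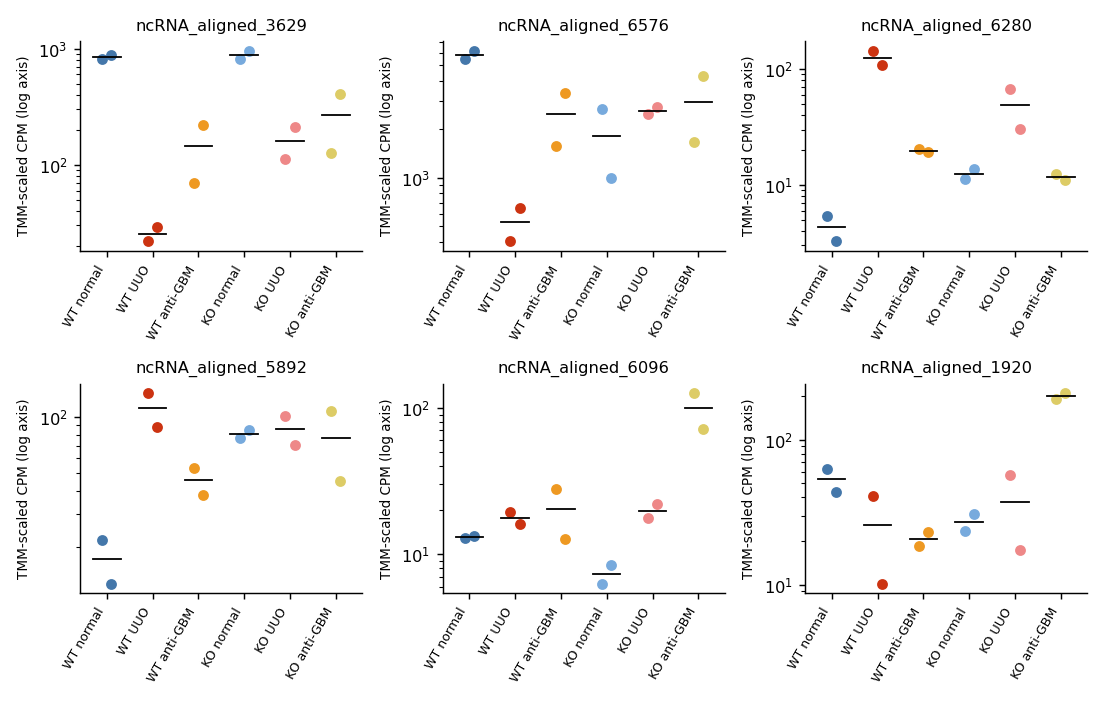
TMM-scaled CPM (log axis, its range set for each panel) of 6 transcripts in the 6 groups; points are libraries and the bar is the mean of the 2. ncRNA_aligned_3629 and ncRNA_aligned_6576 are lowest in WT UUO, ncRNA_aligned_6280 is highest in WT UUO, ncRNA_aligned_5892 is lowest in WT normal, and ncRNA_aligned_6096 and ncRNA_aligned_1920 are highest in KO anti-GBM.

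Between KO anti-GBM and WT anti-GBM none of the 688 was called by edgeR (share of all transcripts tested called, 0.0201%). At an unadjusted p under 0.05 there were 111 of the 688, 84 higher and 27 lower in KO. Among all transcripts tested that share was 14.8%, with 1078 higher and 2583 lower. DESeq2 called 14 of the 688, beside 1.75% of all transcripts tested. The median difference was 0.18 against -0.62 over all transcripts. With library size alone it was -0.55 against -1.37, 8 were called, all lower, and 20 were higher and 96 lower at an unadjusted p under 0.05. Without KO anti-GBM 2 the median was -0.303 against -1.539 over all transcripts. Higher ones among the 688 then no longer outnumbered lower ones at an unadjusted p under 0.05. Beside ncRNA_aligned_1920 the smallest p-values were those of ncRNA_aligned_8761, with 25.9 and 45.5 CPM in WT anti-GBM and 322 and 218 in KO anti-GBM (2.92 ± 0.58, adjusted p = 0.0519), and ncRNA_aligned_4909, with 17.8 and 37.8 against 167 and 134 (2.44 ± 0.49, adjusted p = 0.0562). In both the pairs do not overlap, and in both KO anti-GBM was also above the normal pairs of either genotype, whose highest values were 93.1 and 95.8 CPM. Without the 3 libraries of low coverage, which leaves a single KO anti-GBM library, the median was 0.284 against -0.569 over all transcripts. More were called there than with all 12 libraries, among the 688 and among all.

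The difference between the KO and WT responses to anti-GBM glomerulonephritis was called by edgeR for none of the 688 (share of all transcripts tested called, 0.0161%). At an unadjusted p under 0.05 there were 72 of the 688, beside 10% of all transcripts tested. DESeq2 called 4 of the 688, beside 0.508% of all. After ncRNA_aligned_1920 the smallest p-values were those of ncRNA_aligned_1942 and ncRNA_aligned_2418. ncRNA_aligned_1942 had 36.8 and 12.0 CPM in KO anti-GBM against 4.87 and 3.18 in KO normal, and 1.95 and 2.18 in WT anti-GBM against 8.98 and 9.32 in WT normal (interaction 4.73 ± 1.19, adjusted p = 0.271). Its pairs are apart in both genotypes and in opposite directions, and the KO anti-GBM libraries lie far apart from each other. ncRNA_aligned_2418 had no read in either KO anti-GBM library and 4.03 and 3.27 CPM in WT anti-GBM (adjusted p = 0.271).

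Normal kidneys of both genotypes were also compared. None of the 688 was called by edgeR in KO normal against WT normal (share of all transcripts tested called, 0.0161%). At an unadjusted p under 0.05 there were 18 of the 688, 9 in each direction. Among all transcripts tested that share was 2.22%, with 268 higher and 282 lower. DESeq2 called 1 of the 688, beside 0.177% of all transcripts tested. Without the 3 libraries of low coverage edgeR called more, among the 688 and among all. The median was 0.00 against 0.03 over all transcripts. The smallest p-value was that of ncRNA_aligned_5892, with 21.8 and 12.8 CPM in WT normal and 76.9 and 84.9 in KO normal, which do not overlap (2.22 ± 0.52, adjusted p = 0.367; DESeq2 adjusted p = 0.0252). In KO mice this transcript had 101 and 70.6 CPM in UUO and 108 and 45.5 in anti-GBM kidney, so the KO pairs overlap one another. The next were ncRNA_aligned_4115 and ncRNA_aligned_6576, with the values given above and adjusted p = 1 for both in edgeR.

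Some transcripts had no read in a whole group. Of 618 transcripts with 10 or more reads in both libraries of some group, 32 had no read in both libraries of another. The group without reads was KO anti-GBM for 19 of them, WT normal and KO normal for 11 each, WT anti-GBM for 5, WT UUO for 2 and KO UUO for 1, some transcripts counting in more than 1. Over all transcripts the same counts were 1862 in KO anti-GBM, 655 in WT normal, 481 in KO normal and 290 in KO UUO. They were 96 in each of WT UUO and WT anti-GBM. KO anti-GBM was also the group whose libraries listed the fewest transcripts. How many of all transcripts reached 10 reads in both libraries of some group was not counted, so these counts have no share beside them. ncRNA_aligned_2418 was highest in WT UUO (12.4 and 5.71 CPM), at least 27.0-fold above the floor in KO anti-GBM, and ncRNA_aligned_1133 at least 45.9-fold. ncRNA_aligned_10150, at 3.63 and 5.85 CPM in WT normal, was at least 14.2-fold above that floor. ncRNA_aligned_2456 had no read in WT normal and 0.298 and 26.0 CPM in WT UUO, a pair so far apart that the mean, at least 40.8-fold above the floor, rests on WT UUO 2.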

How the data were processed

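Kidney RNA of 6 groups of 2 libraries was depleted of ribosomal RNA and made into libraries from the longer RNA, per the labels. Bowtie 0.12.7 and mm9 are named in the submitters' processing notes; how transcripts were assembled, how reads were assigned and whether strand was used are not given in the sources used here. Per the file headers, each deposited table gives the count of uniquely mapped reads on each transcript with 1 or more reads (a missing transcript was taken as 0 reads), its length and its best database match. The deposited RPKM values, made by the authors, equal the counts per kilobase relative to all reads of the same table. The percent of each transcript's length that is covered is deposited too, per the file headers. The deposited depth (coverage signal) gave, with counts and lengths, a read length of 90 bases.

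The test on the counts of all transcripts was edgeR's (version 4.0.16, R 4.3.3; scaling by TMM, filterByExpr by group, 24816 of 42452 transcripts kept, 1 mean per group over the 12 libraries, robust quasi-likelihood F test). Benjamini-Hochberg adjustment ran over all transcripts tested, and the 688 lncRNA-entry transcripts among them were then counted at 0.05; the other 252 were too low to test. Fold changes are log2, and standard errors were derived from F. With 2 libraries against 2 a permutation gives no p under 0.3333, and the calls depend on a spread shared by all groups. Coverage breadth divides the covered length by the length that as many reads placed at random would cover; its median was taken over lncRNA-entry transcripts above 500 bases in length that had 20 to 200 reads. Floors of 3 reads cover counting error only. Alternatives were DESeq2 1.42.0, its size factors in edgeR, library size alone, no low-count filter, leaving out the 3 libraries of low coverage and each library in turn, and, chosen after seeing the data, library size without the 2 dominant transcripts.

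Transcripts named are the 10 of highest mean RPKM; per comparison up to 6 called higher and 6 lower of largest log2 difference with a mean of 5 CPM or more; the 3 of smallest p where fewer than 3 were called; and 5 with no read in a group. Others named, including further calls in WT UUO, entries, RFAM models and the steadiest transcripts, were chosen after their values were seen. The set, the alternatives and the rule were chosen with earlier results of these data known.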

Additional observations from a re-analysis of the deposited data

Results flagged for a closer look

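ncRNA_aligned_6576 was picked out because its response to obstruction differed between genotypes in a test of the difference itself: the interaction was 3.97 ± 0.72 on the log2 scale (edgeR, adjusted p = 0.0461). The WT pair fell from 5493 and 6151 CPM to 403 and 654, lower in 2 of 2 libraries, while the KO pairs overlapped, at 2671 and 995 CPM in normal and 2477 and 2738 in obstructed kidney. KO normal 2 was the lowest library outside WT UUO. The adjusted p ran up to 0.228 over the fits that left out 1 library each, and it was 0.194 without the 3 libraries of low coverage and 0.356 with library size alone.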

How the results depend on the processing

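The counts of lncRNA-entry transcripts called moved by more than 1.5 times under many alternatives, and so did the counts over all transcripts tested. DESeq2 called 66 in WT UUO against WT normal, 4 in WT anti-GBM, 4 in KO UUO, 5 in KO anti-GBM, 1 in KO against WT normal, 4 in KO against WT UUO, 14 in KO against WT anti-GBM, 3 in the genotype by UUO and 4 in the genotype by anti-GBM interaction. In that order, fits without the low-count filter called 65, 4, 5, 4, 1, 4, 8, 3 and 1, and fits without the 3 libraries of low coverage, where single libraries are assumed to vary like the other groups, called 113, 71, 7, 13, 8, 3, 87, 17 and 50. With library size alone, 2 were called in WT anti-GBM, 2 in KO UUO, 8 in KO against WT anti-GBM and 0 in the genotype by UUO interaction; library size without the 2 dominant transcripts gave 1 in KO UUO, 1 in KO against WT anti-GBM and 0 in that interaction, and DESeq2 size factors in edgeR gave 2 in KO against WT anti-GBM and 0 in that interaction. Leaving out 1 library at a time gave 10 to 65 in WT UUO, 0 to 2 in WT anti-GBM, 0 to 11 in KO UUO, 0 to 3 in KO anti-GBM, 0 to 6 in KO against WT anti-GBM, 0 to 1 in each interaction, and 0 in both other comparisons. Over all transcripts tested the counts moved in these fits too. The cause of these moves was not tested. Of 62 values of named transcripts none changed sign under any alternative, which choosing them for calls or small p-values in these data in part fixed. The calls among them were 38 in WT UUO, 2 in KO anti-GBM and 1 in the genotype by UUO interaction, and the rest were uncalled. With library size alone 24 of these calls were lost, and with DESeq2 1 was. No paired analysis was possible because the labels give no replicate numbers shared between groups. With 2 libraries a group and reads that are not independent molecules, transcripts of few reads are the least certain, and without strand or coordinates overlapping transcripts cannot be separated.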
